A study of Homo sapiens with 12 samples.

Results

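Apolipoproteins A-I, A-II, B, E and H (genes APOA1, APOA2, APOB, APOE and APOH) and the cholesterol efflux pump ABCA1 were followed through an array study of cells exposed to hepatoprotective agents. All probes annotated with one of these 6 gene symbols were taken, 6 of the 13881 genes measured, which gave 8 of the 15650 probes with a gene symbol. APOA1 and APOB had 2 probes each and the other 4 genes 1 each. Probes were taken by gene name and not by value, though the 6 genes were chosen with earlier results of these data known.

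The cells carried the label HepG2, an established human liver cancer line, and were grown in serum-containing medium. Total RNA was labelled with Cy5 and hybridised to one-colour arrays. Of 12 arrays, 3 came from cells given 25 µM glycyrrhizin, a saponin of liquorice, 3 from cells given 25 µM silymarin, the flavonolignan mixture of milk thistle, 3 from cells given 25 µM ursodeoxycholic acid, a hydrophilic bile acid, and 3 from mock-treated controls. The sources used here give neither exposure time nor vehicle. They also do not say whether arrays of 1 group stem from separate cultures, so p-values measure only how far these arrays lie apart, and that spread may be technical.

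Lipoproteins carry cholesterol and triglycerides through blood. The liver builds very-low-density particles around APOB, and it releases APOA1 and APOA2, the main proteins of high-density lipoprotein. Cholesterol leaves cells when ABCA1 passes it, with phospholipid, to lipid-poor APOA1. APOE is the ligand by which remnant particles are taken up, and APOH, also called beta-2-glycoprotein I, is a plasma protein of liver origin that binds anionic phospholipids.

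The deposited values were linear intensities already brought to a common distribution, with array medians from 85.8 to 86.6. No detection call accompanied them, and whether a dim probe was above background was therefore unknown. In RNA from whole cultures, fewer cells of a type and less RNA per cell cannot be told apart. Brightness is given here as a percentile, the share of the 15650 probes that were dimmer by their mean log2 intensity over 12 arrays. A percentile depends on a probe's sequence as well as on its transcript and is no measure of abundance between genes. Of 23 hepatocyte markers 19 were measured. They had a median percentile of 52.6, 0 of 19 above 90, and the urea cycle enzyme CPS1 was at 0.949. Of 17 neuroblast and sympathetic neuron markers 13 were measured, with a median of 82.2. They ran from ELAVL4 at 0.163 to the catecholamine enzyme TH at 97.3. Median percentiles were 55.3 for 7 leukocyte, 69.2 for 7 endothelial, 42.6 for 7 fibroblast and stellate cell and 30.7 for 6 other epithelial markers. Probes of 50 olfactory receptor genes, a family silent in most tissues, had a median of 44.6 and 29 cytosolic ribosomal proteins one of 73.7. The brightest hepatocyte marker was the haem carrier HPX at 89.4. The marker levels thus did not single out hepatocytes, and the cells are called by their label here. In each comparison of an agent with control, limma called 0 genes of these 6 marker lists at an adjusted p under 0.05.

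The brightest probes of the 6 genes ran from percentile 0.642 to 83.4, with 0 of 6 above 90. APOB (83.4), ABCA1 (76.7), APOA1 (69.0) and APOE (65.1) had at least 1 probe above the median probe, while APOA2 (23.0) and APOH (0.642) lay below it. Of the 52 olfactory receptor probes 42 were dimmer than the bright APOB probe, 38 than ABCA1, 36 than the bright APOA1 probe and 32 than APOE. Only 9 were dimmer than APOA2 and 0 were dimmer than APOH.

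**Figure D1:**
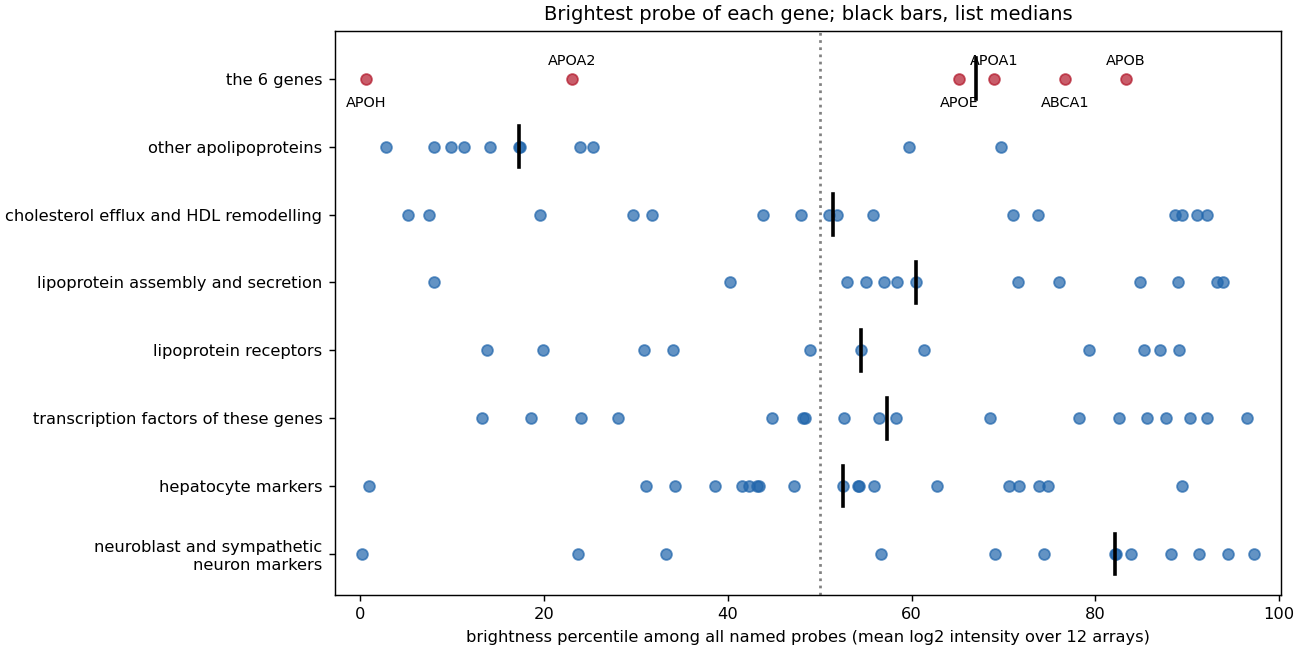
Brightness percentile of the brightest probe of each gene among all probes with a gene symbol (x axis, percent of probes that were dimmer), by gene list. Each point is a gene and each black bar a list median. The members run from APOH at 0.642 to APOB at 83.4, the hepatocyte markers centre on 52.6 and the neuroblast and sympathetic neuron markers on 82.2.

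Differences were tested with limma on log2 intensities, with 1 mean per group and Benjamini-Hochberg adjustment over the 15650 probes. None of the 8 probes passed an adjusted p of 0.05 in any of the 7 comparisons. Among all probes, 0.00639% were called with glycyrrhizin against control, 0% with silymarin, 0% with ursodeoxycholic acid and 0% with the mean of the 3 agents. The calls were 0.0447% for glycyrrhizin against silymarin, 0% for glycyrrhizin against ursodeoxycholic acid and 0.0256% for silymarin against ursodeoxycholic acid. Groups that did not overlap were found for 0 of 8 members with glycyrrhizin (12.6% of all probes), 0 with silymarin (10.8%), 1 with ursodeoxycholic acid (9.62%) and 0 with the mean of the agents (0.837%). They were found for 2 of 8 in glycyrrhizin against silymarin (17.6%), 3 of 8 in glycyrrhizin against ursodeoxycholic acid (11.5%) and 0 of 8 in silymarin against ursodeoxycholic acid (14.4%). At an unadjusted p under 0.05 the members gave 0 of 8 with glycyrrhizin, against 5.65% of all probes. They gave 1 of 8 with silymarin (5.32% of all probes), 1 of 8 with ursodeoxycholic acid (5.59%) and 1 of 8 with the mean of the agents (4.72%). Between agents the counts were 1 of 8 for glycyrrhizin against silymarin (9.57%), 1 of 8 for glycyrrhizin against ursodeoxycholic acid (5.05%) and 0 of 8 for silymarin against ursodeoxycholic acid (8.38%). The median member difference was −0.07 with glycyrrhizin, 0.31 with silymarin and 0.13 with ursodeoxycholic acid, and all probes had a median of 0.02 in each of these comparisons. The 3 comparisons share the control arrays.

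**Figure D2:**
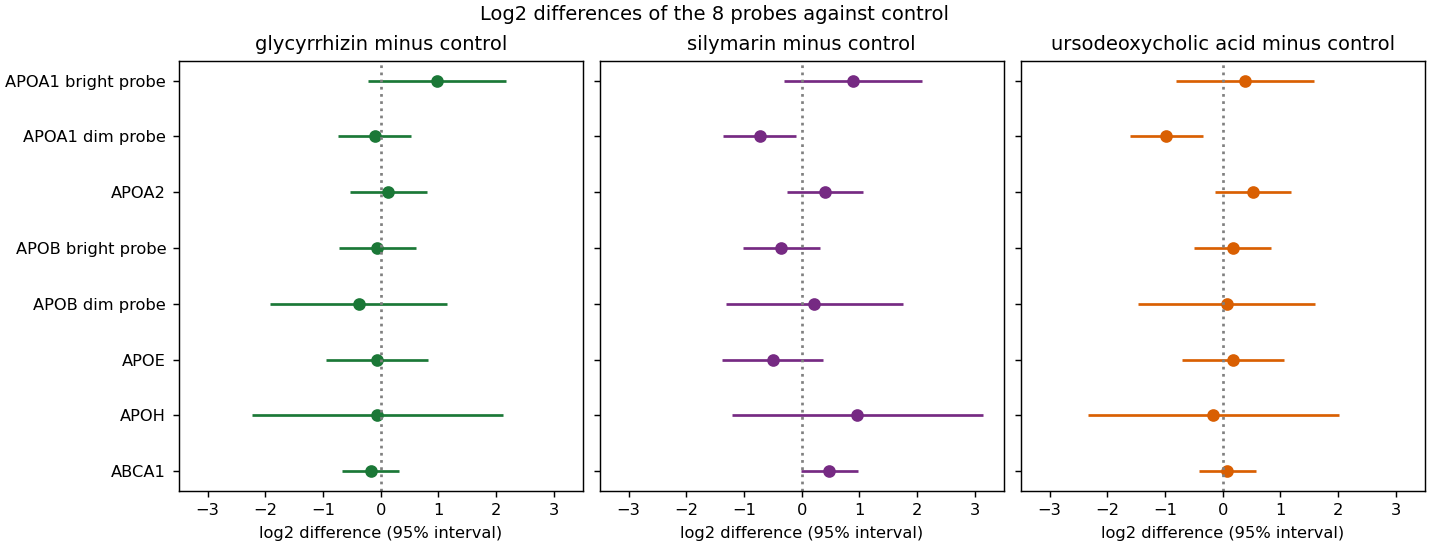
Log2 difference of each agent minus control for the 8 probes (points) with 95% intervals from the limma fit (lines). Intervals cross 0 for every probe except the dim APOA1 probe with silymarin and with ursodeoxycholic acid, and they are widest for APOH, at 2.18 log2 units on each side.

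A moderated F-test over the 4 groups in limma gave an adjusted p of 0.561 for the dim APOA1 probe and of 0.726 for ABCA1. It is fitted probe by probe, with variances moderated across all probes. The other 6 probes had adjusted p-values from 0.821 to 0.956. Of all probes 0.0192% passed that test.

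The scaffold of high-density lipoprotein, APOA1, was read by a bright and a dim probe that differed in their pattern. The bright probe read 315, 266 and 237 intensity units with glycyrrhizin, 259.7, 236 and 266 with silymarin, 105, 205 and 268 with ursodeoxycholic acid, and 49.5, 202 and 258 in control. Control replicate 1 and ursodeoxycholic acid replicate 1 stood low, and the agents overlapped control. The log2 differences were 0.98 (SE 0.54, 95% interval −0.22 to 2.18, adjusted p = 0.912 in limma) with glycyrrhizin, 0.89 (SE 0.54, adjusted p = 0.943) with silymarin and 0.38 (SE 0.54, adjusted p = 0.933) with ursodeoxycholic acid. Without control replicate 1 they were 0.24, 0.15 and −0.35.

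The dim APOA1 probe, at percentile 19.5, read 42.2, 43.1 and 38.2 with glycyrrhizin, 34.2, 24 and 23 with silymarin, 21.9, 26.7 and 19.4 with ursodeoxycholic acid, and 28.3, 59.6 and 50.9 in control. All ursodeoxycholic acid arrays lay below all control arrays, while the other agents overlapped control. The log2 difference from control was −0.97 with ursodeoxycholic acid (SE 0.29, 95% interval −1.61 to −0.34), with an adjusted p of 0.725 in limma. For silymarin it was −0.73 (SE 0.29, adjusted p = 0.906) and for glycyrrhizin −0.1 (SE 0.29, adjusted p = 0.998). Such a separation was seen for 1 of the 8 members in the comparison of ursodeoxycholic acid with control and for 9.62% of all probes. The same probe was higher on all glycyrrhizin arrays than on all ursodeoxycholic acid arrays (log2 difference 0.87, SE 0.29, adjusted p = 0.865) and than on all silymarin arrays (0.63, SE 0.29, adjusted p = 0.528). With the mean of the 3 agents it differed by −0.6 (SE 0.23, adjusted p = 0.998).

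The distance between the 2 APOA1 probes is given by group as a description, since it was picked out after the values were seen. The log2 ratio of the bright over the dim probe averaged 2.72 ± 0.16 with glycyrrhizin, 3.25 ± 0.31 with silymarin, 2.99 ± 0.77 with ursodeoxycholic acid and 1.64 ± 0.78 in control (SD, n = 3 each). All glycyrrhizin and silymarin arrays lay above all control arrays, and ursodeoxycholic acid replicate 1, at 2.25, lay below control replicate 3, at 2.34. Control replicate 1, the lowest array for the bright probe, had the lowest ratio, at 0.80. How often the probes of other genes separate in this way was not tested. No p is given for a pattern chosen on the same arrays, and whether the dim probe stood above background is unknown. The log2 values of the 2 probes correlated at r = 0.243 over 12 arrays and at 0.664 within groups. Which of them reads the APOA1 transcript was not tested.

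**Figure D3:**
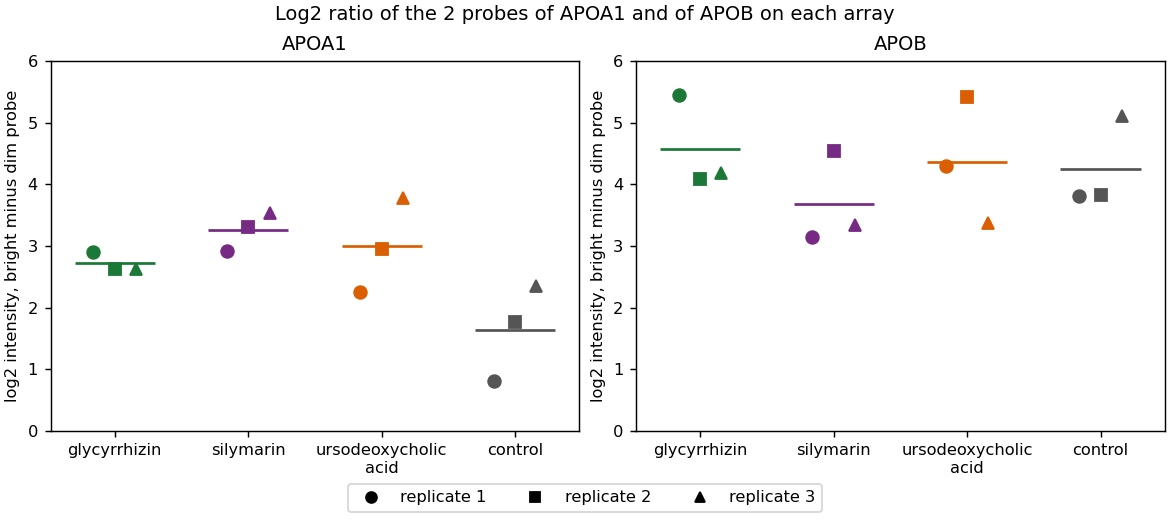
Log2 ratio of the bright over the dim probe of APOA1 (left) and of APOB (right) on each array. Points are arrays, marked by replicate, and bars are group means. For APOA1 the agents averaged 2.72, 3.25 and 2.99 and control 1.64, and for APOB 4.57, 3.67 and 4.36 and control 4.25.

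APOA2, the second protein of high-density lipoprotein, read 33.2, 43.8 and 24.4 with glycyrrhizin, 29.6, 58.4 and 36.2 with silymarin, 49, 35.4 and 46.2 with ursodeoxycholic acid, and 27.4, 27.7 and 35.6 in control. Each agent overlapped control. The log2 difference was 0.52 with ursodeoxycholic acid (SE 0.3, adjusted p = 0.892 in limma), 0.4 with silymarin (adjusted p = 0.955) and 0.13 with glycyrrhizin (adjusted p = 0.995). Without silymarin replicate 2 the silymarin difference was 0.12. Its SD over 12 arrays, 0.38, was larger than that of 10.1% of the 783 probes in its class of brightness.

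APOB, the structural protein of very-low-density and low-density lipoprotein, had the brightest probe of the set. That probe read 468, 441 and 513 with glycyrrhizin, 535, 462 and 233 with silymarin, 519.8, 558 and 599 with ursodeoxycholic acid, and 509, 618 and 383 in control. Silymarin replicate 3 was the lowest of the 12 arrays, 0.72 log2 units under the next. A gap at least as large below the next array occurred for 17.8% of all probes. The log2 differences from control were −0.06 with glycyrrhizin (SE 0.3, adjusted p = 0.998 in limma), −0.35 with silymarin (adjusted p = 0.96) and 0.18 with ursodeoxycholic acid (adjusted p = 0.947). Without silymarin replicate 3 the silymarin difference was 0.01.

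The dim APOB probe, at percentile 12.7, ranged from 10.8 to 28.3 with glycyrrhizin, from 19.8 to 60.8 with silymarin, from 13.1 to 58 with ursodeoxycholic acid and from 11.1 to 43.7 in control. All groups overlapped. It stood a mean of 4.21 log2 units under the bright probe, against a median gap of 1.68 for the 1674 genes with several probes.

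APOE read 184, 167 and 178 with glycyrrhizin, 202, 192 and 57.1 with silymarin, 198, 213 and 220.2 with ursodeoxycholic acid, and 208, 182 and 166 in control. Silymarin replicate 3 again stood apart, 1.54 log2 units under the next array, a gap reached by 4.53% of all probes. The other 11 arrays lay between 166 and 220.2. The log2 difference was −0.07 with glycyrrhizin (SE 0.4, adjusted p = 0.998 in limma), −0.5 with silymarin (adjusted p = 0.96) and 0.19 with ursodeoxycholic acid (adjusted p = 0.958). Without silymarin replicate 3 the silymarin difference was 0.09.

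The bright APOB probe and APOE had the closest patterns among the member probes. Their r was 0.918 over 12 arrays and 0.669 over 11 without silymarin replicate 3. The dim APOB probe had r = 0.156 with APOE and 0.377 with the bright APOB probe over 12 arrays. These values share the arrays and their normalisation. The bright APOB probe and APOE were lower on all glycyrrhizin arrays than on all ursodeoxycholic acid arrays. The log2 differences were −0.24 (SE 0.3, adjusted p = 0.922 in limma) for the bright APOB probe and −0.26 (SE 0.4, adjusted p = 0.937) for APOE. With the dim APOA1 probe, 3 of 8 members were separated in that comparison, against 11.5% of all probes. The dim APOB probe overlapped there (log2 difference −0.45, SE 0.69, adjusted p = 0.936 in limma). Silymarin replicate 3 held the lowest value for 8.16% of all probes, and the 12 arrays ranged from 5.62% to 11.4% by that count.

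**Figure D4:**
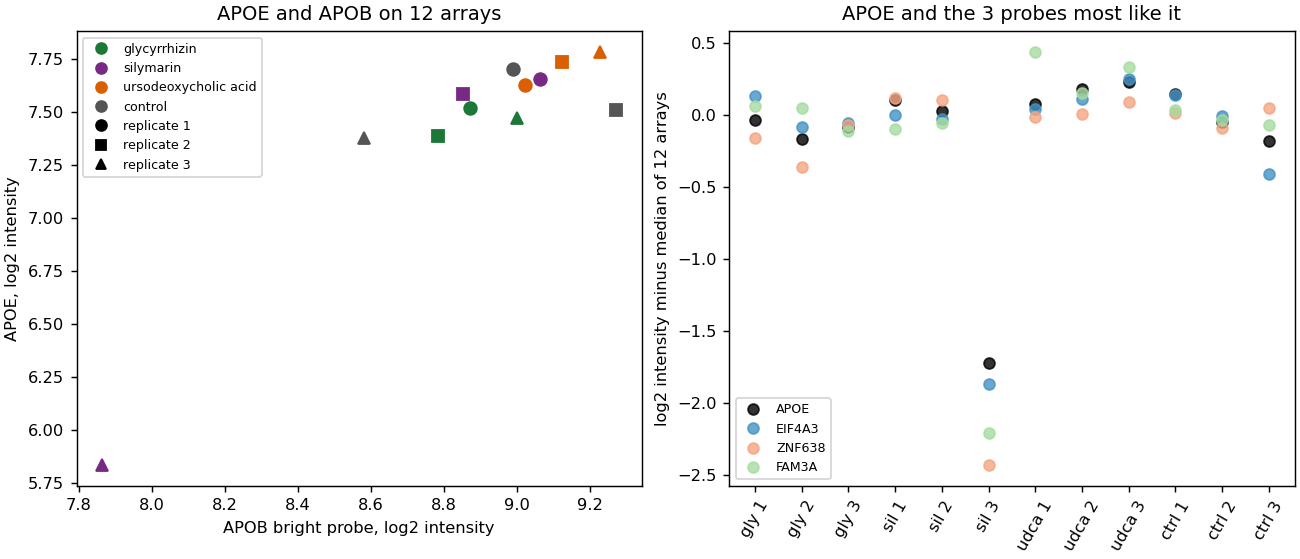
Left, log2 intensity of APOE (y axis) against the bright APOB probe (x axis) on 12 arrays. Right, APOE and the 3 probes most like it on each array, as log2 intensity minus the median of the 12 arrays (gly, sil, udca and ctrl stand for glycyrrhizin, silymarin, ursodeoxycholic acid and control). Silymarin replicate 3 is far below the other arrays for APOE and for all 3 other probes.

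APOH was the dimmest member and ranked among the dimmest 1% of all probes. It read 23.8, 18.1 and 2.25 with glycyrrhizin, 28.3, 12 and 24 with silymarin, 12.5, 21.2 and 2.96 with ursodeoxycholic acid, and 3.92, 21.1 and 13.3 in control. A low array occurred in 3 of the 4 groups, and the highest value was 12.6 times the lowest. The log2 differences of −0.06, 0.96 and −0.16 with glycyrrhizin, silymarin and ursodeoxycholic acid had an SE of 0.99, so a difference of up to 2.18 log2 units either side of them lay inside the interval. The silymarin difference was 0.26 without control replicate 1 and 1.48 without control replicate 2.

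APOH is made mainly by hepatocytes, and its promoter is shown because its probe was so dim in cells labelled as a liver line. The 250 bases before its RefSeq start lie on the minus strand at chr17:66229416-66229665 (GRCh38.p14). Capitals mark GTTAAT on either strand, the half-site of the liver factor HNF1, a motif chosen from what is known of this promoter. The match as written spans 49 to 44 bases before the start, and 1 on the other strand spans 210 to 205. The motif occurs in 6.23% of 35116 such windows. Of the 6 genes, 4 were in the promoter table.
APOH promoter: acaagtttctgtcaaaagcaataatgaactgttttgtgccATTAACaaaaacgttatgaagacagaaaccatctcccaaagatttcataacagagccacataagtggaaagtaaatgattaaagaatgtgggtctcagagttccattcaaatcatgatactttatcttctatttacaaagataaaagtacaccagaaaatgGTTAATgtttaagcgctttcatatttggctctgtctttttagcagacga

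ABCA1, the transporter that starts cholesterol efflux, read 269, 257 and 237 with glycyrrhizin, 439, 492 and 292 with silymarin, 331, 319 and 260.2 with ursodeoxycholic acid, and 281, 264 and 315 in control. Of the silymarin arrays, 2 were the highest of all 12 and replicate 3 lay within the control range. The log2 difference from control was 0.48 with silymarin (SE 0.22, 95% interval −0.02 to 0.97, adjusted p = 0.93 in limma), −0.17 with glycyrrhizin (SE 0.22, adjusted p = 0.995) and 0.08 with ursodeoxycholic acid (SE 0.22, adjusted p = 0.967). With silymarin 2 of 3 arrays lay above all controls, and without silymarin replicate 2 the difference was 0.32. That array, the highest for ABCA1, held the highest value for 17.5% of all probes, against 5.65% to 12.5% on the other 11 arrays. Its median r with the other arrays was 0.921, the second lowest of 12, and the part of this in the ABCA1 value was not tested.

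Glycyrrhizin and silymarin lay further from each other in ABCA1 than either lay from control. ABCA1 averaged 7.99 ± 0.09 log2 units with glycyrrhizin and 8.64 ± 0.4 with silymarin (SD, n = 3 each), a log2 difference of −0.65 (SE 0.22, 95% interval −1.14 to −0.16), or 1.57-fold lower, on 3 of 3 arrays. Its adjusted p was 0.358 in limma, so it did not pass. It was, with the dim APOA1 probe, 1 of 2 members whose arrays did not overlap in that comparison, against 17.6% of all probes. ABCA1 differed by 0.4 between silymarin and ursodeoxycholic acid (SE 0.22, adjusted p = 0.636) and by −0.25 between glycyrrhizin and ursodeoxycholic acid (SE 0.22, adjusted p = 0.893). It was the member with the narrowest interval, 0.49 log2 units on each side.

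ABCA1 is a textbook target of the liver X receptors, which sense oxysterols. Its promoter is shown because, among the members brighter than the median probe, ABCA1 had the lowest unadjusted p between agents. The 250 bases before its RefSeq start lie on the minus strand at chr9:104928156-104928405 (GRCh38.p14). Capitals mark GGTCA on either strand, a half-site of nuclear receptors, chosen from the known receptor element of this promoter. It was found as its reverse complement, 69 to 65 bases before the start, and occurs in 32.6% of the windows. Of the 4 member genes in the promoter table, APOE also held it in its window. A match describes the letters only, and the arrays did not measure binding.
ABCA1 promoter: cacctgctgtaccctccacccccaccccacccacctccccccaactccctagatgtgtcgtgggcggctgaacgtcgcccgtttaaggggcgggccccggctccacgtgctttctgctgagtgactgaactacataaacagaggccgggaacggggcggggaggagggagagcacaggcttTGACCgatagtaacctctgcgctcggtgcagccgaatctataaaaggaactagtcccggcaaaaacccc

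**Figure D5:**
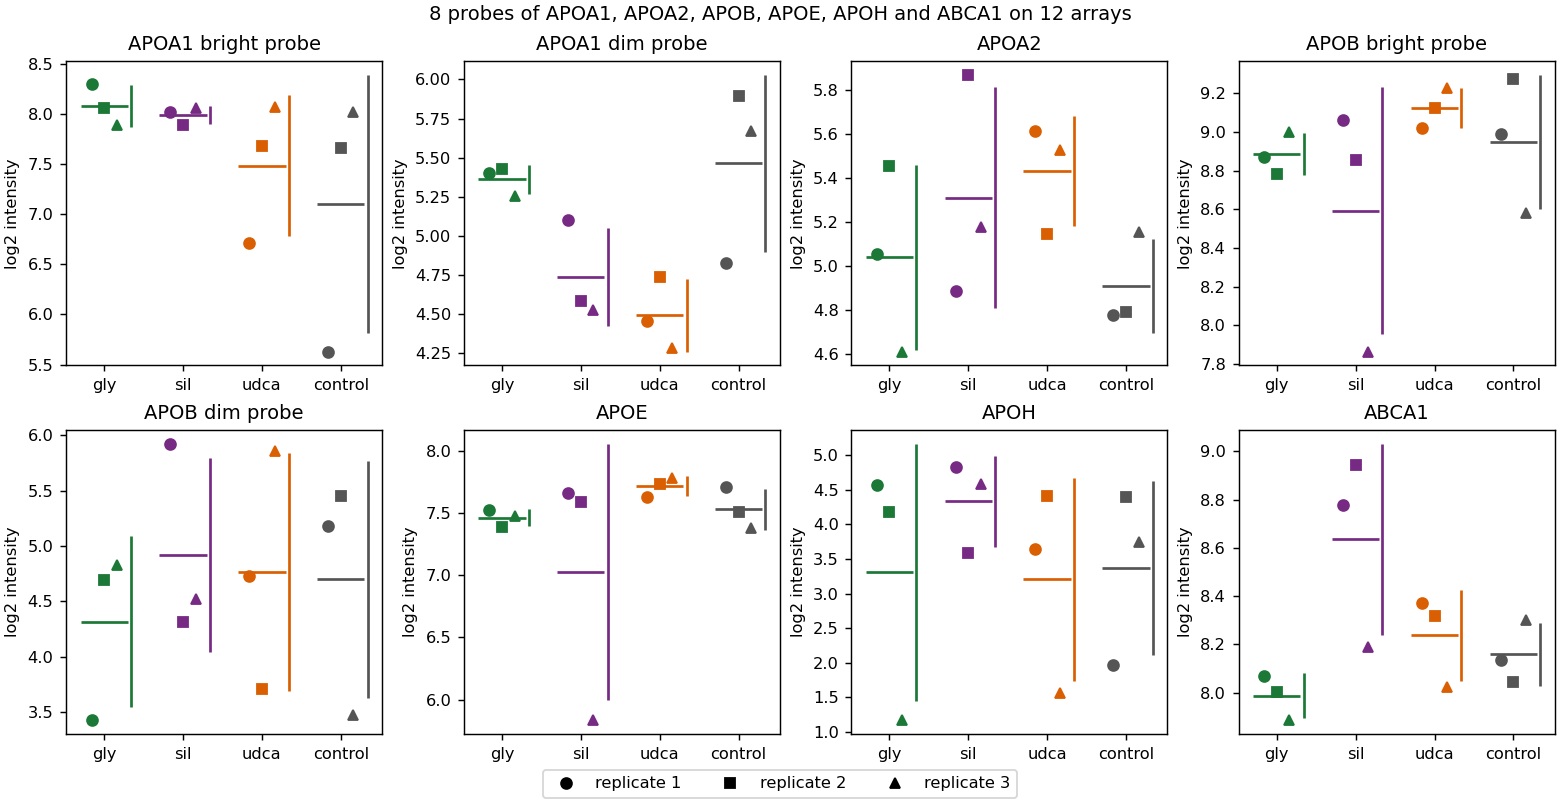
Log2 intensity (y axis) of the 8 probes on the 12 arrays, by group (gly, glycyrrhizin; sil, silymarin; udca, ursodeoxycholic acid). Points are arrays marked by replicate, horizontal bars group means and vertical bars the mean ± SD of 3 arrays. Axes differ between panels and do not start at 0. ABCA1 is highest on 2 silymarin arrays, and the bright APOB probe and APOE are lowest on silymarin replicate 3.

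Probes brighter than the median probe were ranked by Pearson's r with the brightest probe of each member over the 12 arrays. Closest to APOA1 were ICAM1 (r = 0.977), CNOT6 (0.968) and CERS2 (0.958). ICAM1 read 525, 481 and 461 with glycyrrhizin, 395, 346 and 457 with silymarin, 208, 433 and 443 with ursodeoxycholic acid, and 79.1, 393 and 453 in control, low on the same 2 arrays as APOA1. Closest to APOB were SORBS2 (0.975), PFKFB3 (0.965) and RNF19A (0.954), and closest to APOE were EIF4A3 (0.984), ZNF638 (0.979) and FAM3A (0.969). ZNF638 read 338 on silymarin replicate 3 and between 1419 and 1978 on the other arrays. Without that array the r of the 3 probes with APOE was 0.795, 0.591 and 0.516, and that of the 3 probes with APOB was 0.899, 0.873 and 0.819.

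ABCA1 was closest to MTERF4 (0.969), SENP3 (0.959) and TMEM60 (0.95), and these kept r of 0.953, 0.965 and 0.953 without silymarin replicate 2, the array farthest from the median. APOA2 was closest to BCAR3 (0.896), APOBEC3G (0.864) and RYBP (0.848), and APOH to SLC29A4 (0.848), RSRC2 (0.838) and MAP1LC3B (0.821). These are the highest of 7824 or 7825 values for each member, and nothing about shared control follows from them. An r over 0.8 was reached by 173 probes for ABCA1, 86 for APOE, 75 for APOA1, 69 for APOB, 19 for APOA2 and 4 for APOH.

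The wider lipoprotein pathway was read from 5 lists, with the brightest probe of each gene. Of 11 measured other apolipoproteins 9 lay below the median probe. APOL5 (percentile 69.7), APOA5, a regulator of triglyceride-rich particles (59.7), and the chaperone-like CLU (25.3) were the brightest, and APOL6 (8.0) and APOL1 (2.80), a trypanosome-killing factor of serum, the dimmest. APOL6 read 2755 on ursodeoxycholic acid replicate 2 and at most 34.2 on the other 11 arrays. None of the 11 passed with any agent against control, the lowest adjusted p in limma being 0.889. Their median log2 difference was 0.12 with glycyrrhizin, −0.12 with silymarin and 0.3 with ursodeoxycholic acid. Above control lay 6 of 11 with glycyrrhizin, 4 of 11 with silymarin and 9 of 11 with ursodeoxycholic acid, against 52.3%, 52.3% and 52.4% of all probes.

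Of 16 genes of cholesterol efflux and remodelling of high-density lipoprotein, the sterol hydroxylase CYP27A1 (percentile 92.1), the lipid carrier STARD3 (91.0) and the sterol transporter ABCG4 (89.5) were the brightest, and ABCG1 (7.51) and the lysosomal cholesterol exporter NPC1 (5.21) the dimmest. None of the 16 passed with any agent (lowest adjusted p = 0.756). The median difference was 0.05 with glycyrrhizin, 0.25 with silymarin and 0.27 with ursodeoxycholic acid. In the same order 8, 12 and 11 of 16 lay above control, against 52.3%, 52.3% and 52.4% of all probes. LCAT, which esterifies cholesterol on the particle, was higher on all silymarin arrays, at 52.2, 96.4 and 69.8, than in control, at 33, 27.7 and 37.8 (log2 difference 1.12, SE 0.44, adjusted p = 0.905 in limma). The transfer protein CETP was lower on all ursodeoxycholic acid arrays, at 84.6, 76.3 and 102, than in control, at 128, 123 and 134 (−0.56, SE 0.23, adjusted p = 0.883). Groups did not overlap for 10.8% of all probes with silymarin and 9.62% with ursodeoxycholic acid. LCAT and CETP were named for an unadjusted p under 0.05 in limma, so their separation is no separate result. NPC1 differed by 3.04 with glycyrrhizin (SE 1.09, adjusted p = 0.756 in limma), where replicate 2 read 330.5 and the other 2 arrays 21.7 and 19.1. Control read 10.25, 1.67 and 14.3, and its replicate 2 was close to 1, the lowest intensity of the data.

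Of 13 genes listed under lipoprotein assembly and secretion, the lipid droplet coat protein PLIN2 (percentile 93.9), the sterol esterifier SOAT1 (93.2) and ACAT2 (89.1) were the brightest. ACAT2 is a thiolase and not itself an assembly protein. The dimmest were SAR1B (40.3) and KLHL12 (7.99), which act in vesicles that leave the endoplasmic reticulum. None passed with any agent (lowest adjusted p = 0.831). Median differences were −0.14 with glycyrrhizin, 0.17 with silymarin and −0.01 with ursodeoxycholic acid. In the same order 5, 8 and 6 of 13 lay above control, against 52.3%, 52.3% and 52.4% of all probes. DGAT1, which completes triglyceride synthesis, read 173, 161 and 145 with silymarin and 196, 120 and 149 with ursodeoxycholic acid, against 104, 108 and 114 in control. All 6 of those treated arrays lay above control, with log2 differences of 0.56 (SE 0.22, adjusted p = 0.905 in limma) and 0.49 (SE 0.22, adjusted p = 0.883). Groups did not overlap for 10.8% of all probes with silymarin and 9.62% with ursodeoxycholic acid. DGAT1 was named for an unadjusted p under 0.05 in limma, so its separation is no separate result. The sorting receptor SORT1 was at 462, 500.1 and 348 with glycyrrhizin and at 687, 533 and 601 in control (−0.48, SE 0.2, adjusted p = 0.831).

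Of 11 lipoprotein receptors and their regulators, STAB1 (percentile 89.1), VLDLR (87.0) and LRP8 (85.3) were the brightest and LRP2 (19.9) and MYLIP (13.8) the dimmest. None passed (lowest adjusted p = 0.892), while 7 of 11 lay above control with glycyrrhizin, 9 of 11 with silymarin and 11 of 11 with ursodeoxycholic acid. Their median log2 differences were 0.16, 0.34 and 0.32. Of all probes, 52.3%, 52.3% and 52.4% lay above control in these comparisons. All genes were read on the same control arrays, so such counts are not independent results. VLDLR, a receptor for triglyceride-rich particles and APOE, read 891, 1132 and 711 with silymarin and 573, 598 and 579 in control (0.62, SE 0.26, adjusted p = 0.93 in limma).

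Of 18 transcription factors of these genes, CEBPB (percentile 96.5), NR2F1 (92.2) and ONECUT1 (90.3) were the brightest and NR5A2 (18.5) and PROX1 (13.3) the dimmest. The liver X receptors were near the middle, NR1H2 at 52.6 and NR1H3 at 44.8. None of the 18 passed (lowest adjusted p = 0.888), and the median difference was −0.07 with glycyrrhizin, 0.18 with silymarin and 0.04 with ursodeoxycholic acid. In the same order 8, 12 and 9 of 18 lay above control, against 52.3%, 52.3% and 52.4% of all probes. CEBPB read 6408, 5344 and 4492 with silymarin and 3541, 2952 and 4324 in control (0.59, SE 0.22, adjusted p = 0.888 in limma).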

How the data were processed

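The authors deposited 1 linear intensity per probe and array for 27561 probes. The submitters' processing notes name limma, without its version or steps. Array names came from the titles. Of the probes, 15650 had 1 gene symbol in the platform annotation, and 11911 had none and entered only an alternative. Older symbols were updated through a table of human genes (GRCh38.p14), 2355 in all. Deposited intensities were put on the log2 scale without an offset. The limma package (version 3.58.1, under R 4.3.3) fitted all 4 groups together by lmFit and eBayes (8 residual and 2.72 prior degrees of freedom) and two-sided tests. Every probe was tested on its own. The number of arrays limits the precision. No 2 arrays held the same values. Promoter sequences are from RefSeq.

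The members and gene lists were chosen with earlier results of these data known. Named genes of the 5 pathway lists are the 3 brightest and 2 dimmest and those with an unadjusted p under 0.05 with an agent, and like genes are the 3 with the highest r among probes above the median brightness. NR1H2 and NR1H3, and the markers HPX, CPS1, ELAVL4 and TH, were added after their values were seen, and other marker genes are given as lists. Alternatives are given in the closing section. The test was checked on simulated arrays.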

Additional observations from a re-analysis of the deposited data

How the results depend on the processing

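In 21 alternative settings, 12 of which left out 1 array each, limma called 0 of the member probes that each setting held. Those were 8, but 4 without probes under the median brightness and 6 with 1 probe per gene. All 7 comparisons were run, except that the compared groups alone gave 6, without the mean of the agents. The lowest adjusted p of the 30 member differences followed was 0.126. Of 605 recomputed differences 583 kept their direction and side of the threshold and 22 reversed, 20 of them on leaving out an array. The cause was not tested. APOH with glycyrrhizin was 0.064 with an offset of 16, and the dim APOB probe with ursodeoxycholic acid −0.30 with array weights. Leaving out each array gave, with glycyrrhizin against control, −0.42 to 0.12 for the dim APOA1 probe, −0.076 to 0.35 for APOA2, −0.25 to 0.10 for the bright and −0.997 to 0.062 for the dim APOB probe, −0.15 to 0.017 for APOE and −0.76 to 1.01 for APOH. Without a change of sign, silymarin gave 0.12 to 0.62 for APOA2 and 0.26 to 1.48 for APOH, and the bright APOA1 probe 0.24 to 1.44 with glycyrrhizin and 0.15 to 1.34 with silymarin. With silymarin it gave −0.59 to 0.010 for the bright and −0.39 to 0.596 for the dim APOB probe and −0.82 to 0.090 for APOE. With ursodeoxycholic acid it gave −0.35 to 0.84 for the bright APOA1 probe, −0.0073 to 0.34 for the bright and −0.55 to 0.597 for the dim APOB probe and −0.86 to 0.66 for APOH. The difference of the bright over dim APOB ratio from control ran from −0.12 to 0.75 with glycyrrhizin and from −0.42 to 0.602 with ursodeoxycholic acid (alternatives added after seeing the data). That of APOA1 ran from 0.67 to 1.43 with glycyrrhizin, 1.20 to 1.97 with silymarin and 0.94 to 1.73 with ursodeoxycholic acid. The APOA1 ratio was picked on these same arrays, so these ranges are no separate support.
Counts over all probes moved more. Glycyrrhizin against control had 1 call, against 0 with the replicate block, with all probes of the table or with the compared groups alone, 3 with the offset, 3 without probes under the median brightness, 18 with a variance trend and robust estimation, 4 with array weights and 0 to 0 without an array. Silymarin had 0, against 1 with the offset, 2 without those probes, 4 with the trend and 1 with array weights. Ursodeoxycholic acid had 0, against 4 with the offset, 3 without those probes, 6 with the trend and 0 to 21 without an array (21 without ursodeoxycholic acid replicate 3). The mean of the agents had 0, against 1 with the offset, 6 with the trend and 0 to 1 without an array. Glycyrrhizin against silymarin had 7, against 0 with the block or the compared groups alone, 17 with the offset, 148 without those probes, 216 with the trend, 21 with array weights and 0 to 5 without an array. Glycyrrhizin against ursodeoxycholic acid had 0, against 0 to 2 without an array. Silymarin against ursodeoxycholic acid had 4, against 0 with the block, all probes or the compared groups alone, 7 with 1 probe per gene, 16 with the trend and 0 to 29 without an array (29 without ursodeoxycholic acid replicate 3).
Same-numbered arrays deviated from their group means with r from −0.17 to 0.14, above 0.1 in 4 of 18 pairs. The 36 other pairs of arrays from different groups ran from −0.22 to 0.26. No deviation shared by same-numbered arrays was visible, but whether they were handled together is unknown. The replicate block changed no member call. Signal over background was not given, so values of APOH, APOA2 and the dim APOA1 and APOB probes could not be told from background.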
